A study of Mus musculus with 6 samples.

Results

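A set of 8 genes that mark mast cells and basophils was examined in cultures of mouse macrophages: Prss34, Mcpt8, Cpa3, Ms4a2, Fcer1a, Hdc, Il4 and Gata2. They were chosen by name, with earlier results of these data known. All 8 of 8 were found by gene symbol among the 55421 genes of the deposited count table. The cultures were wild-type (WT) macrophages grown from bone marrow in RPMI-1640 with 10% fetal bovine serum, penicillin, streptomycin and macrophage colony-stimulating factor (M-CSF) at 20 ng/mL. The untreated group was 3 wells kept in that medium. The conditioned-medium group was 3 wells in which 50% of the medium was taken from LL-2 cells, a mouse Lewis lung carcinoma line. M-CSF at 20 ng/mL and 10% serum are listed for the wells of both groups. After 24 h the cells of all 6 wells were lysed, and polyadenylated RNA was sequenced. The comparison asks what tumour-cell medium does to the transcripts of these cultures, and the members were followed as a sign of minor cells beside the macrophages. No medium conditioned by other cells was analysed here. Whether wells stem from different animals is not stated in the labels, and p-values therefore reflect only how much these wells differed, possibly for technical reasons.

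Mast cells and basophils are granulocytes that carry the high-affinity receptor for immunoglobulin E (IgE), and antigen that cross-links this receptor makes them release histamine, proteases, lipid mediators and cytokines such as interleukin-4. Basophils leave the bone marrow mature, while mast cells finish their differentiation in tissue. Both lineages depend on the transcription factor GATA2, and bone marrow put into culture can carry them or their precursors along with the monocytes that become macrophages.

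The libraries held 24179548 to 30040682 counts. Levels are counts scaled to the library total (CPM) after TMM scaling, and tests are edgeR's quasi-likelihood test with adjustment over the 13853 genes that passed the filter on low counts, at a threshold of 0.05. Macrophage markers were abundant in every library: Lyz2, the macrophage lysozyme gene, stood at 45410 ± 4306 CPM in the untreated wells and 49293 ± 2156 CPM in conditioned medium (SD, n = 3 per group). The members together summed to 24.6, 29.3 and 21.8 CPM in untreated wells 1, 2 and 3, and to 16.8, 19.2 and 15.5 CPM in conditioned-medium wells 1, 2 and 3. These are traces, and a bulk library cannot tell fewer cells of a type from less RNA per cell.

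The label was checked against other markers. Genes of mature tissue mast cells were mostly at 0: of 13 genes in a list of granule proteases and their partners, 7 had 0 counts in all 6 libraries, namely Tpsab1, Tpsg1, Cma1, Mcpt1, Mcpt2, Mcpt4 and Mcpt9. Over the whole table, 13853 of 55421 genes passed the filter on low counts, and the share at 0 was not counted. The mast cell receptor genes Mrgprb1 and Mrgprb2 and the serotonin synthesis gene Tph1 also had 0 counts throughout. A count of 0 was taken to allow up to 3 counts (the rounded one-sided 95% Poisson limit), or 0.0999 to 0.124 CPM, in a library, which covers counting error only. Tpsb2, a mast cell tryptase gene, had 2 counts over all untreated libraries and 0 over those of conditioned medium. Mcpt8 and Prss34, whose proteases are typical of basophils, were present in every library. Cd200r3, a surface receptor gene of basophils and mast cells, had 73 counts over the untreated libraries and 51 over those of conditioned medium. The receptor genes Kit and Il1rl1 were present too. Kit had 432 counts over the untreated libraries and 313 over those of conditioned medium, and Il1rl1 had 74 and 95.

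The members Prss34, Mcpt8, Cpa3, Ms4a2 and Gata2 were lower in conditioned medium, and Hdc and Il4 were higher. That is 5 of 7 tested members lower, where 15.2% of all tested genes were called lower, and 2 of 7 higher, where 12.6% of all tested genes were called higher. Fcer1a had too few counts to pass the filter. Without both libraries numbered 3, which had the lowest sums of several marker lists, the same 7 members were called. The groups did not overlap for any of the 8 members, 6 of them lower and 2 higher, whereas 21.6% of all tested genes were lower and 21.2% higher without overlap. The median log2 fold change of the 7 tested members was -1.22, and that of all tested genes was 0.0126. Because the members were chosen with earlier results of these data known, these shares and medians are descriptions only.

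**Figure D1:**
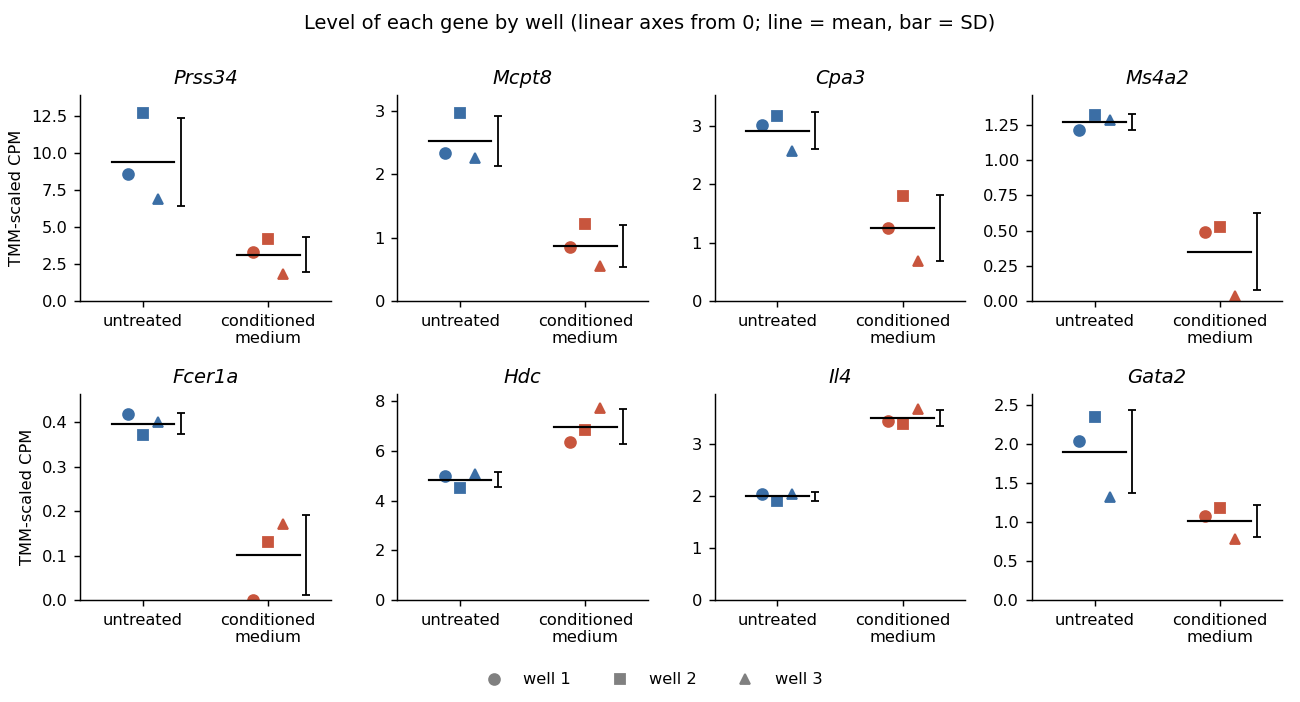
TMM-scaled CPM of each member (vertical axis, linear from 0) in the 3 untreated wells (blue) and the 3 conditioned-medium wells (red), with the marker shape giving the well number, the line the mean and the bar the SD. Prss34 goes from 6.90 to 12.7 CPM down to 1.86 to 4.17 CPM, whereas Il4 goes from 1.90 to 2.05 CPM up to 3.38 to 3.68 CPM.

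The promoters of the members are shown because 5 of these genes moved one way and 2 the other, and because GATA factors bind a short word that a reader can look for. Windows from 250 bases before to 50 bases after the annotated start were taken from RefSeq (GRCm38.p6), and all 8 members matched, with 10 windows in all since Il4 and Gata2 have 2 starts each. The word searched on both strands was AGATAA, along with its variants TGATAA (other first base), AGATAG (other last base) and TGATAG (both changed). Each match is in capitals, and a match on the opposite strand reads as the reverse complement. The 3 genes shown first fell in conditioned medium and the other 2 rose.
Prss34, chr17:25298144-25298443, plus strand: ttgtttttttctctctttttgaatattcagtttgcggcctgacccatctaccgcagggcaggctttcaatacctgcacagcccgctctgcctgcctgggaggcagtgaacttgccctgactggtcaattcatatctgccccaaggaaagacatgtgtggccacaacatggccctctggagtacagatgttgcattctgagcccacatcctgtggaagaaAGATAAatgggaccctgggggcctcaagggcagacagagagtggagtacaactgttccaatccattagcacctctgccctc
Cpa3, chr3:20242132-20242431, minus strand: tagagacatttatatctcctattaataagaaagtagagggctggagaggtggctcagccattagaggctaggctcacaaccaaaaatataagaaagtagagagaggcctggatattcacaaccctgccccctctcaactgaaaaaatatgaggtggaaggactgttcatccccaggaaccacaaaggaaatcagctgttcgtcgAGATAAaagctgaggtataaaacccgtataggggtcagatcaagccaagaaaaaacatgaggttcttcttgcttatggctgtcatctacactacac
Ms4a2, chr19:11623670-11623969, minus strand: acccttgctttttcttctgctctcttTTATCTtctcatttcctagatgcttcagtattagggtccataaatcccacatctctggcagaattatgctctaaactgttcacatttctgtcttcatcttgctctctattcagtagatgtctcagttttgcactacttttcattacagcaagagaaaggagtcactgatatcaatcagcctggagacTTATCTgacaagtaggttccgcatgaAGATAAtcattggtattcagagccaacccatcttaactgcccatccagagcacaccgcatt
Hdc, chr2:126618629-126618928, minus strand: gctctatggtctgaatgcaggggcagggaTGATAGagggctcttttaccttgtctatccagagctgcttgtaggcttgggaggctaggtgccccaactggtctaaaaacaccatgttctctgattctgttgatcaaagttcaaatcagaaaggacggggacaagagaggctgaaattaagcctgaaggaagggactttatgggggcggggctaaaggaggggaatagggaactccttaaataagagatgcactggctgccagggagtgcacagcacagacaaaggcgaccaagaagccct
Il4, chr11:53618616-53618915, minus strand: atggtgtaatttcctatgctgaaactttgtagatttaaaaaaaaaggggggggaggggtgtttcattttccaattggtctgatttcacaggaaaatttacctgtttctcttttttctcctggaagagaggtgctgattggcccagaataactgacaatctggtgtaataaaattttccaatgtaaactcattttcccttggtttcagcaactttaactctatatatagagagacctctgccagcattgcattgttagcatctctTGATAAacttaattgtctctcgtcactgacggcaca

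A match was present in 7 of the 10 member windows, belonging to 6 members, and in 29.8% of all 32851 windows of that length. In Prss34 and Cpa3 the word AGATAA begins at position -31 and -46 from the start site. Ms4a2 holds 3 matches, at positions -224, -37 and -11, and Fcer1a holds 1 at -92. The genes that rose hold the words too: TGATAG begins at -221 in Hdc, and in the Il4 window above TGATAA begins at position 15. The other Il4 window, further into the gene, has TGATAG at -80. The Mcpt8 window and both Gata2 windows held none of these letters, which says nothing about whether the factor acts there. The words were thus present both in members that fell and in members that rose.

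The 3 granule proteases among the members fell. Prss34 encodes a tryptase-like serine protease of basophils (ENSMUSG00000056399, chromosome 17, 25298394 to 25300165, plus strand, GRCm38, 5 exon blocks). Its counts were 205, 308 and 172 in untreated wells 1, 2 and 3 and 102, 127 and 54 in conditioned-medium wells 1, 2 and 3. Every conditioned-medium well lay below every untreated well although its library was deeper. The level went from 9.40 ± 3.00 to 3.12 ± 1.17 CPM, which is 3.01-fold lower (log2 fold change -1.58, SE 0.29, adjusted p = 0.0034). Wells of a group differed by more than counting alone would give: the coefficient of variation was 31.9% in the untreated wells, against 6.62% from counting error, and 37.5% against 10.3% in conditioned medium.

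Mcpt8 encodes mouse mast cell protease 8, a granzyme-like protease that in spite of its name is made by basophils (chromosome 14, 56082166 to 56085273). It had 56, 72 and 56 counts in the untreated wells and 26, 37 and 16 in conditioned medium. Well 2 was the highest and well 3 the lowest in conditioned medium, as for Prss34. The level went from 2.52 ± 0.395 to 0.873 ± 0.333 CPM, 2.89-fold lower (log2 fold change -1.52, SE 0.29, adjusted p = 0.00401).

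Cpa3 encodes carboxypeptidase A3, a granule exopeptidase shared by mast cells, basophils and their progenitors (chromosome 3, 20215620 to 20242181). Its counts were 72, 77 and 64 without and 38, 55 and 20 with conditioned medium, again with the lowest value in conditioned-medium well 3. It was 2.34-fold lower (log2 fold change -1.22, SE 0.30, adjusted p = 0.0154). It missed the threshold without untreated replicate 2 (adjusted p = 0.0604) and without conditioned-medium replicate 1 (adjusted p = 0.0569), while over all alternatives adjusted p ran from 0.000458 to 0.0604.

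Both IgE receptor chains that are restricted to these cells were scarce. Ms4a2 encodes the beta chain, which amplifies the receptor's signal (chromosome 19, 11615523 to 11623719). It had 29, 32 and 32 counts in the untreated wells and 15, 16 and 1 in conditioned medium. The untreated wells were nearly equal, and conditioned-medium well 3 stood far below the others, with an exact 95% Poisson interval of 0.0253 to 5.57 counts. The level went from 1.27 ± 0.0551 to 0.351 ± 0.274 CPM, 3.63-fold lower (log2 fold change -1.83, SE 0.53, adjusted p = 0.0301). Without conditioned-medium replicate 3 the log2 fold change was -1.32 and the call was kept (adjusted p = 0.0139). The threshold was missed without untreated replicate 1, 2 or 3 (adjusted p = 0.0726, 0.0915 and 0.0635), without conditioned-medium replicate 1 (adjusted p = 0.0581) and when libraries were thinned to the smallest total (adjusted p = 0.0555), in a range of 0.00142 to 0.0915 over the alternatives.

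Fcer1a encodes the alpha chain, which binds IgE itself (chromosome 1, 173221284 to 173227214). Its counts were 10, 9 and 10 in the untreated wells and 0, 4 and 5 in conditioned medium. The groups did not overlap, but the gene was not tested. The untreated sum of 29 counts has an exact Poisson interval of 19.4 to 41.6 and the conditioned-medium sum of 9 counts one of 4.12 to 17.1, which cover counting error only. Tested without the filter, its log2 fold change was -1.92 and it missed the threshold (edgeR adjusted p = 0.0558). Fcer1g, the signalling chain that macrophages also use for their own Fc receptors, was plentiful and went from 1029 ± 43.5 to 839 ± 21.1 CPM (log2 fold change -0.29, adjusted p = 0.00156).

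Gata2 encodes the zinc-finger factor of blood stem cells, progenitors, mast cells and basophils (chromosome 6, 88193891 to 88207032). It had 49, 57 and 33 counts in the untreated wells and 33, 36 and 23 in conditioned medium. As CPM the groups stood just apart, since the lowest untreated well was at 1.32 and the highest conditioned-medium well at 1.18. The level went from 1.91 ± 0.529 to 1.02 ± 0.203 CPM, 1.87-fold lower (log2 fold change -0.90, SE 0.28, adjusted p = 0.0423). This was the largest adjusted p of the 7 calls. Gata2 missed the threshold without untreated replicate 1 (adjusted p = 0.118) or 2 (0.162) and without conditioned-medium replicate 1 (0.0995), 2 (0.064) or 3 (0.11). It also missed it without scaling beyond the total count (0.0529) and with limma-voom (0.0533), and over all alternatives adjusted p lay between 0.0104 and 0.162.

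Hdc and Il4 rose. Hdc encodes histidine decarboxylase, the enzyme that makes histamine, and is expressed by other myeloid cells as well (chromosome 2, 126593667 to 126619299). Its counts were 119, 109 and 126 in the untreated wells and 193, 208 and 224 in conditioned medium. Conditioned-medium well 3, the lowest for the granule proteases, was the highest for Hdc. The level rose from 4.84 ± 0.299 to 6.96 ± 0.698 CPM, or 1.44-fold (log2 fold change 0.52, SE 0.12, adjusted p = 0.012). Without untreated replicate 2 the adjusted p was 0.0506, the only alternative that lost the call, and the range was 0.00329 to 0.0506.

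Il4 encodes interleukin-4, the cytokine by which basophils and mast cells promote type 2 immunity (chromosome 11, 53602982 to 53618669, minus strand). It had 49, 46 and 51 counts in the untreated wells and 105, 103 and 107 in conditioned medium. Wells of a group were almost alike, with coefficients of variation of 4.27% and 4.54%, below the 14.3% and 9.76% that counting error alone would give on average. The level rose from 2.00 ± 0.0852 to 3.50 ± 0.159 CPM, or 1.75-fold (log2 fold change 0.81, SE 0.16, adjusted p = 0.00457), and the call was kept in all 15 alternatives.

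The neighbours of Il4 were read beside it. In the deposited table the Il4 model has 7 exon blocks, the last of which (53602982 to 53603160) lies 1014 bases from the end of Kif3a, a kinesin gene transcribed towards it on the plus strand. Kif3a rose from 44.9 ± 2.18 to 69.1 ± 7.98 CPM (log2 fold change 0.62, adjusted p = 0.0005). The table gives no counts per exon, so reads over this distal block could not be told apart from the rest of Il4, and the part of Kif3a transcription in the Il4 count was not tested. Il13, the neighbouring type 2 cytokine gene, had 1 count over the untreated libraries and 6 over those of conditioned medium, and Il5 had 0 in all 6. No member shared exon bases with another gene of the table.

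**Figure D2:**
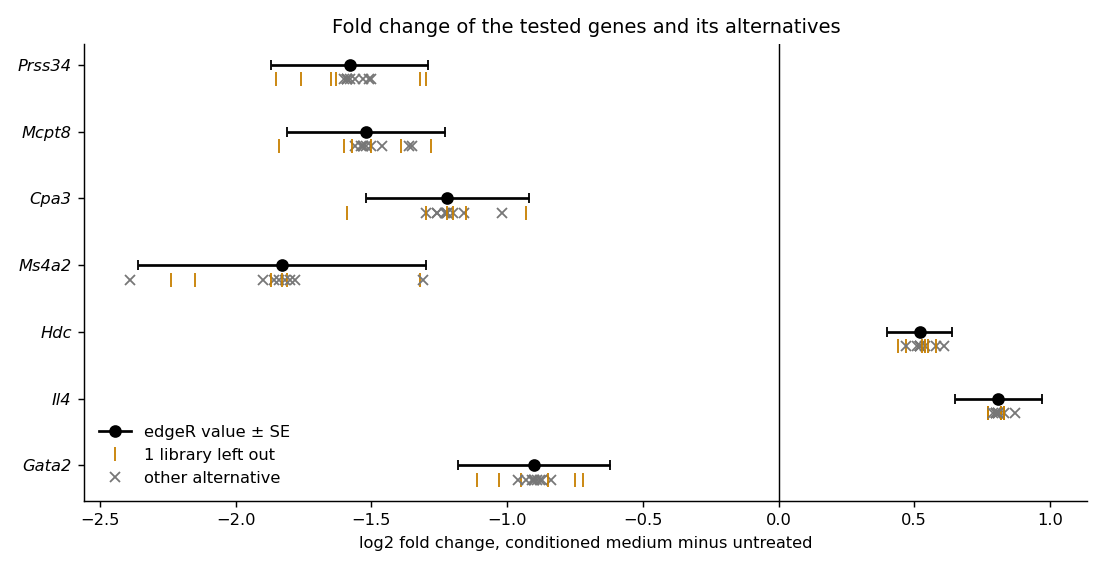
Log2 fold change of the 7 tested members (horizontal axis, conditioned medium minus untreated) with its SE (black), and the same value with 1 library left out (orange ticks) or under another alternative (grey crosses). Each value of a gene stays on its side of 0: Prss34 lies between -1.85 and -1.30, and Il4 between 0.77 and 0.87.

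The members were then compared within each well, where depth and scaling cancel. Per 100 Prss34 counts there were 27.3, 23.4 and 32.6 Mcpt8 counts in the untreated wells and 25.5, 29.1 and 29.6 in conditioned medium. The Mcpt8 ratio thus stayed in the same range, as Prss34 was 3.01-fold and Mcpt8 2.89-fold lower in conditioned medium, which are similar falls. The Cpa3 ratio was 25 to 37.2 in the untreated wells and 37.0 to 43.3 in conditioned medium, and the ranges overlapped slightly. Gata2 went from 18.5 to 23.9 per 100 Prss34 counts up to 28.3 to 42.6, with no overlap. Hdc went from 35.4 to 73.3 up to 164 to 415, and Il4 from 14.9 to 29.7 up to 81.1 to 198, each without overlap. That separation was fixed in advance, since Prss34 was lower and Hdc and Il4 higher without overlap. The highest ratios of both came in conditioned-medium well 3, where Prss34 had its lowest count (54). These ratios are descriptions of 3 wells a group, and their differences were not tested.

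**Figure D3:**
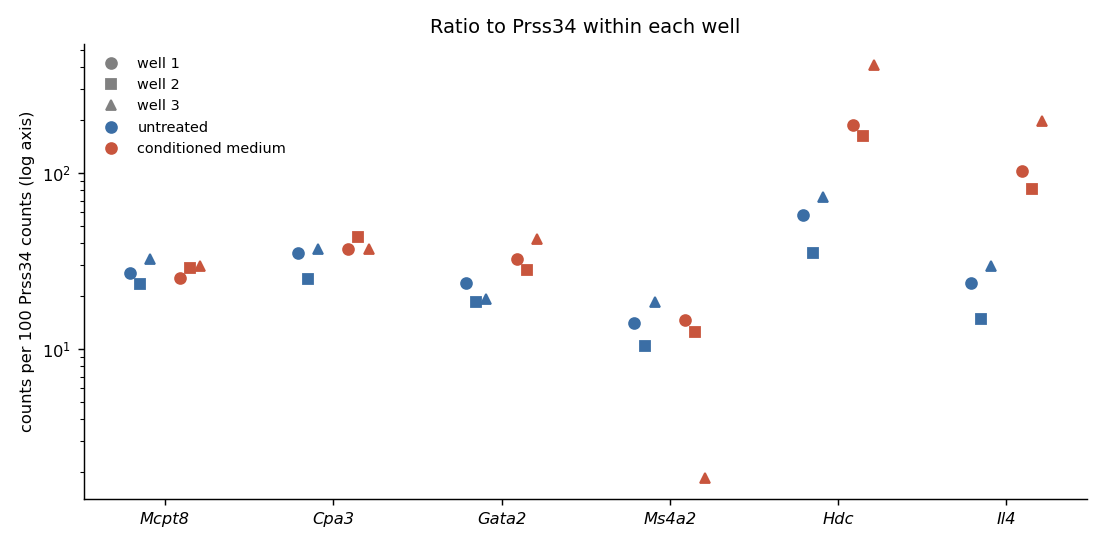
Counts of 6 members per 100 Prss34 counts in the same well (log axis), untreated in blue and conditioned medium in red, with shapes for the well numbers. The Mcpt8 points of both groups share the range 23.4 to 32.6. The Hdc and Il4 points of the groups stand apart, which their direction opposite to Prss34 fixes. They are highest in conditioned-medium well 3, where Prss34 was lowest.

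Per length of transcript the order of the members changed between groups. In the untreated wells Prss34 led with 7.70 ± 2.46 CPM per kilobase of exon, followed by Mcpt8 (2.52), Cpa3 (1.92), Il4 (1.63), Hdc (0.758), Ms4a2 (0.452), Fcer1a (0.398) and Gata2 (0.354), and only Fcer1a and Gata2 overlapped in their ranges over wells among neighbours in that order. In conditioned medium Il4 (2.86 ± 0.13) and Prss34 (2.56 ± 0.96) came first with overlapping ranges. Hdc (1.09) came next and overlapped Mcpt8 (0.875), which overlapped Cpa3 (0.822). Gata2 (0.189) stood apart from Cpa3 and overlapped Ms4a2 (0.125), which overlapped Fcer1a (0.101).

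The 5 other genes whose profile over the 6 wells lay nearest to the summed members were Exoc3l2, Batf3, Mcm7, Tuba1b and Syce2. Their root mean square difference from it was 0.0453 to 0.0606 on the centred log2(CPM + 0.5) scale. The sum mixes members that were lower with Hdc and Il4, which were higher, and stood at 0.68 of the untreated level. These 5 genes had log2 fold changes of -0.73 to -0.53, while the tested members had -1.83 to -0.90, or 0.52 and 0.81. They are thus near the sum, and nearness to single members was not examined. Batf3, a dendritic cell transcription factor gene, had 4.89, 5.62 and 4.17 CPM in the untreated wells and 3.41, 3.84 and 2.89 in conditioned medium. Mcm7, a replicative helicase gene, had 31.9, 35.5 and 27.6 CPM and then 21.8, 23.4 and 20.6 CPM. Both shared with the summed members a high well 2 and a low well 3 in each group. That likeness follows from their choice as the profiles nearest to the sum.

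Other genes of the mast cell and basophil programme were read from 7 lists of 117 genes that are not members, many of which macrophages are known to express too. Of 92 tested, 31 were lower and 26 higher, with a median log2 fold change of -0.13. Over all tested genes 15.2% were called lower and 12.6% higher, and these shares stand beside each list below too. They are not matched to the lists for abundance. Among 13 tested genes of IgE receptor signalling, 4 were lower and 1 higher. Lat2, an adaptor that links the receptor to downstream enzymes, fell from 127 ± 4.98 to 52.3 ± 3.92 CPM (log2 fold change -1.28, SE 0.06). Fyn, a Src-family kinase gene, fell with a log2 fold change of -0.39, and Gab2, a scaffold gene of the same pathway, rose with 0.24.

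Of 9 tested genes of mediator synthesis and storage, 4 were higher and 1 lower. The lower gene was Hpgds, a prostaglandin D2 synthase gene, which fell from 221 ± 10.3 to 172 ± 7.04 CPM (log2 fold change -0.36, adjusted p = 0.000734). Ltc4s, the leukotriene C4 synthase gene, rose from 1.30 ± 0.395 to 2.75 ± 0.876 CPM. Alox5 and Alox5ap of the leukotriene pathway and Ptgs1, a prostaglandin synthase gene, rose with log2 fold changes of 0.64, 0.38 and 0.54. Ltc4s missed the threshold without untreated replicate 1 (adjusted p = 0.0653) or 2 (0.0933) and without conditioned-medium replicate 3 (0.0773). The Alox5 call was lost without untreated replicate 1 (0.0539) or 2 (0.0563), and the Ptgs1 call without conditioned-medium replicate 1 (0.0657) or 2 (0.0589). Slc18a2, which loads histamine into granules, was at 3.57 and 3.48 CPM (edgeR adjusted p = 0.914). Of 3 tested granule genes, the proteoglycan gene Srgn and the protease-activating gene Ctsc rose, with log2 fold changes of 0.58 and 0.36. The other, the granule protease gene Ctsg, had a log2 fold change of 0.76 and was not called, with overlapping groups. Its edgeR adjusted p was 0.0982, and 0.000686 with the replicate number as a block.

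Among 14 tested cytokine and cytokine receptor genes, 7 were lower and 5 higher. Kit, the stem cell factor receptor gene of mast cells and progenitors, had 137, 153 and 142 counts in the untreated wells and 110, 129 and 74 in conditioned medium. It fell from 5.91 ± 0.350 to 3.46 ± 0.853 CPM (log2 fold change -0.77, adjusted p = 0.0121, and 0.0515 without untreated replicate 2). Il3ra, which encodes the specific chain of the interleukin-3 receptor on which basophils depend, fell from 84.2 to 62.4 CPM, and Csf2rb, the chain it pairs with, rose from 422 to 547 CPM. Il7r fell with a log2 fold change of -1.29 and Il18rap rose with 0.90.

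Of 14 tested surface receptor genes, 5 were lower and 3 higher. Ptger3, a prostaglandin E2 receptor gene, rose from 1.70 ± 0.165 to 4.75 ± 0.123 CPM and Adora3, an adenosine receptor gene, from 2.05 ± 0.195 to 4.01 ± 0.277 CPM. Cd69, an early activation antigen, and Siglece, an inhibitory lectin, fell with log2 fold changes of -1.27 and -0.69. Cd200r3 went from 1.00 to 0.565 CPM and missed the threshold (edgeR adjusted p = 0.10), with overlapping groups.

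Of 22 tested transcription factor genes, 9 were lower and 5 higher. Bhlhe40, which basophils and activated macrophages express, fell from 66.0 ± 7.83 to 26.0 ± 3.57 CPM (log2 fold change -1.34). Lmo4 and Runx3 fell with log2 fold changes of -0.56 and -0.57, and Ikzf2 rose with 0.66. Runx3 missed the threshold without untreated replicate 1 (adjusted p = 0.0509) or 2 (0.0587). Gata1, the relative of Gata2 in the mast cell and erythroid lineages, was at 3.16 and 2.88 CPM (edgeR adjusted p = 0.811).

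Since Il4 was higher, genes known to respond to interleukin-4 in macrophages were read as well. Of 17 tested, 6 were higher and 5 lower, with a median log2 fold change of -0.01. Ccl24, a chemokine gene, rose from 0.179 ± 0.0505 to 1.58 ± 0.360 CPM, and Fcgr2b, the inhibitory Fc receptor gene, rose 2.15-fold. The others called higher were Chil3, Mgl2, Clec10a and Mrc1, with log2 fold changes of 1.08, 0.92, 0.80 and 0.63. Egr2 and Ccl22 fell with log2 fold changes of -2.21 and -1.14. Socs1, Matk and Irf4 fell as well, with -1.07, -0.71 and -0.68. Il4ra, the receptor chain for interleukin-4, rose from 145 ± 5.23 to 245 ± 6.02 CPM. Retnla had 0 counts in all 6 libraries. Arg1 was not tested and had 13 counts over the untreated libraries and 41 over those of conditioned medium.

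**Figure D4:**
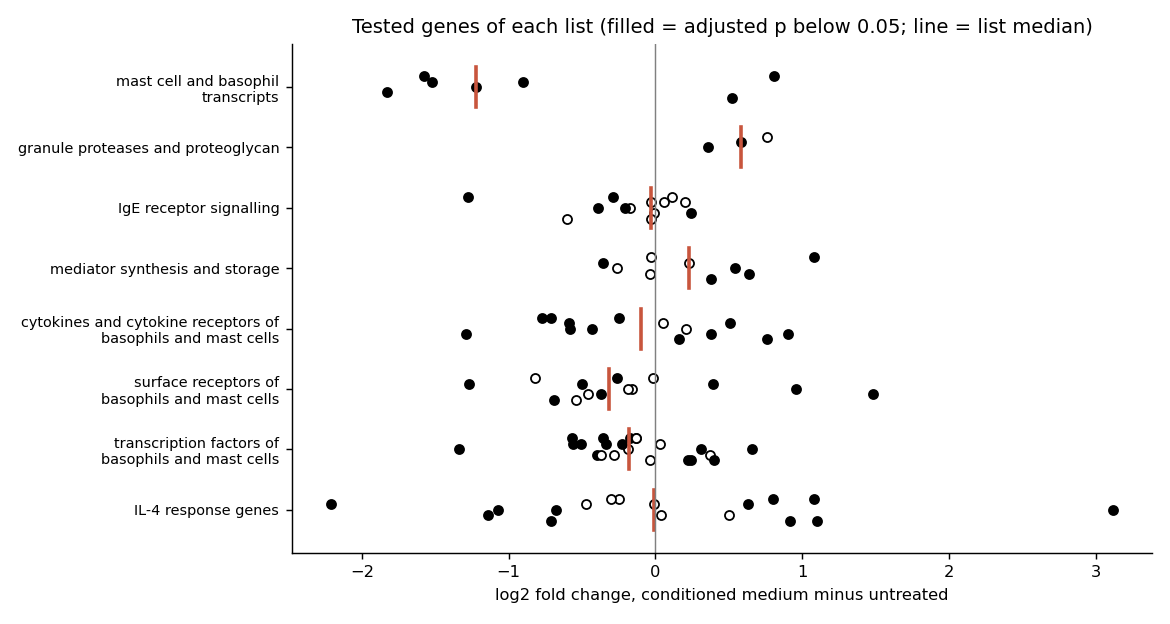
Log2 fold change (horizontal axis, conditioned medium minus untreated) of each tested gene in the mast cell and basophil set and in 7 related lists, filled where the adjusted p was below 0.05, with the list median as a red line. The median is -1.22 for the members and lies between -0.32 and 0.58 for the related lists. Members and lists were chosen with earlier results of these data known.

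Markers of other cell types that bone marrow cultures can hold were summed in the same wells. All 8 members stood at 86.4% to 116% of their untreated mean in the untreated wells and at 61.3% to 76.2% in conditioned medium. Without Prss34 the member sums of the groups overlapped, at 14.9 to 16.6 CPM in the untreated wells and 13.4 to 15.1 CPM in conditioned medium. The 6 members other than Hdc and Il4, a split by their direction that fixes where their sum lies, summed to 17.6, 22.9 and 14.7 CPM in the untreated wells and to 7.02, 9.03 and 4.10 CPM in conditioned medium. Eosinophil markers moved in the same direction: 5 of 8 tested genes were lower and 0 higher, beside 15.2% and 12.6% of all tested genes. All 10 together summed to 36.4 to 53.4 CPM in the untreated wells and 18.0 to 27.4 CPM in conditioned medium. Prg2, the eosinophil major basic protein gene that basophils and mast cells can also express, fell from 26.1 ± 5.30 to 10.9 ± 2.68 CPM (log2 fold change -1.26, adjusted p = 0.00111). Epx, Prg3, Siglecf and Ear6 fell as well, with log2 fold changes of -1.24, -1.13, -1.08 and -2.65. Ear6 belongs to a family of near-identical copies, so its count is uncertain. Ccr3 and Ear2, the most abundant genes of the list after Prg2, were not called and their groups overlapped. Their log2 fold changes were -0.19 and -0.55 (edgeR adjusted p = 0.583 and 0.137). Ccr3, also a basophil receptor gene, had 505 counts over the untreated libraries and 546 over those of conditioned medium. Epx missed the threshold without untreated replicate 1 (adjusted p = 0.0996), 2 (0.0884) or 3 (0.0583), without conditioned-medium replicate 1 (0.123) or 3 (0.0859), without both libraries numbered 3 (0.0815) and with thinning (0.0773). Prg3 missed it without untreated replicate 1 (0.131) or 2 (0.0874) and without conditioned-medium replicate 2 (0.105) or 3 (0.0886).

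The sums of the other lists overlapped between groups when the wells were not paired by number. Blood progenitor markers summed to 21.1, 23.7 and 17.6 CPM in untreated wells 1, 2 and 3 and to 17.4, 17.8 and 12.2 CPM in conditioned medium, lower in each pair of wells with the same number. Of their 6 tested genes, 2 were lower and 0 higher (3 and 1 with the replicate number as a block). The block added calls over all 13853 tested genes too: 2668 were lower and 2355 higher with it, against 2112 and 1749 without it. Megakaryocyte markers summed to 141 to 231 and 135 to 287 CPM (1 of 7 lower and 1 higher, and 4 and 1 with the replicate number as a block). Neutrophil markers summed to 709 to 941 and 887 to 1011 CPM (2 of 15 lower and 4 higher, and 3 and 11 with the block). B cell markers summed to 17.6, 18.2 and 14.5 CPM and to 14.9, 17.8 and 11.3 CPM, also lower in each pair. T and NK cell markers summed to 149, 165 and 106 CPM and to 181, 202 and 111 CPM, higher in each pair. Most of this came from Cd4 (138 and 163 CPM on average), with Cd3e at 0 to 4 counts a library. Erythroid markers summed to 2.76, 2.48 and 1.92 CPM and to 2.82, 2.73 and 2.10 CPM, also higher in each pair. Among them 4 of 10 genes, Slc4a1, Car1, Hbb-bs and Hbb-bt, were at 0. Megakaryocyte, neutrophil and stromal sums moved both ways among the pairs. Stromal markers ranged from 17.3 to 71.5 and from 34.4 to 103 CPM (0 of 7 tested called, and 5 higher with the block). The part of eosinophils, progenitors or any other cells in the fall of the members was not tested.

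**Figure D5:**
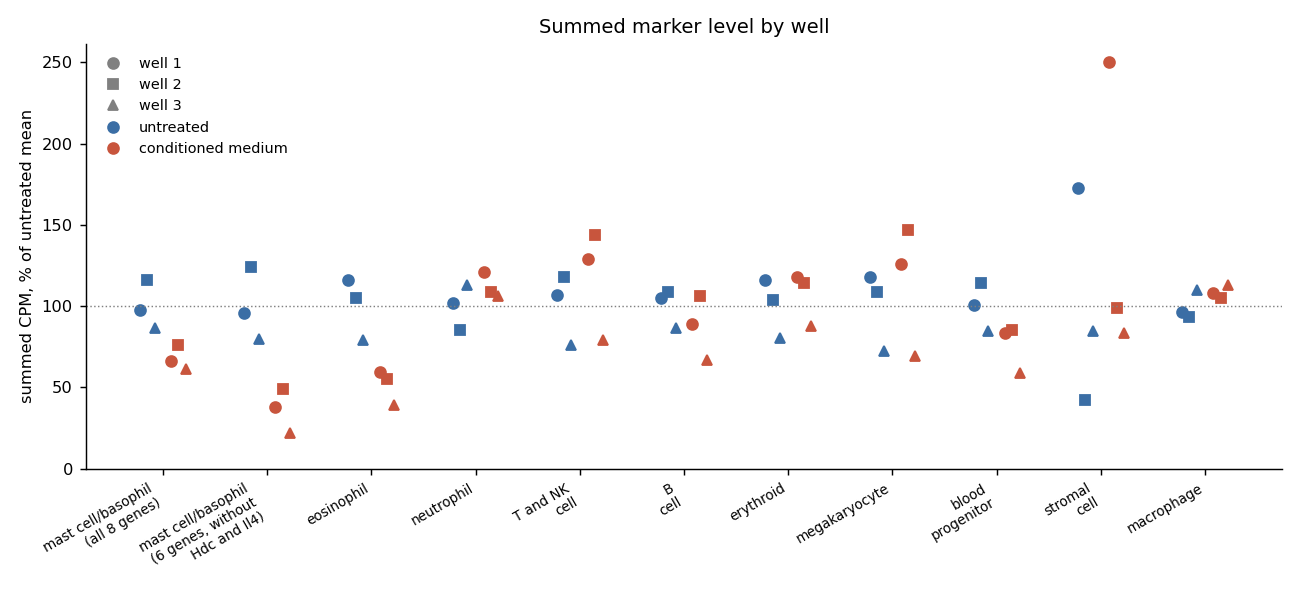
Summed CPM of each marker list in each well as a percentage of its untreated mean (vertical axis, linear from 0), untreated in blue and conditioned medium in red. In conditioned medium all 8 members lie at 61.3% to 76.2% and the eosinophil list at 39.1% to 59.2%, both below all untreated wells, while the other lists overlap. Without Prss34 (not drawn) the member sums of the groups overlap. The 6 members without Hdc and Il4, at 22.2% to 49.0%, were split off by their direction, which fixes that they lie below.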

How the data were processed

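The table deposited by the authors holds raw counts, with a column for each library and the position and exon length of every gene. The aligner HISAT2, the read counter featureCounts and the build GRCm38 are named in the submitters' processing notes. Their versions, the annotation, the strand setting and how multi-mapping reads were handled were not given in the sources used here. Ensembl identifiers were matched to symbols with GENCODE names (55154 of 55421 matched).

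Genes were kept by filterByExpr, libraries scaled by TMM, and the groups compared with edgeR's quasi-likelihood test on the group alone, with Benjamini-Hochberg adjustment over all tested genes (edgeR 4.0.16, limma 3.58.1, DESeq2 1.42.0, R 4.3.3). A positive log2 fold change means higher in conditioned medium, and SE come from the F statistic. Counting error of low counts was given by exact 95% Poisson intervals. The script was tested on simulated data.

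The replicate numbers in the labels were treated as pairing the wells in an alternative fit, because deviations from the group means correlated at 0.318, 0.162 and 0.29 for wells of the same number, over 13853 genes, and at -0.27 to -0.008 for the others. The labels do not say what the numbers stand for.

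The members and the gene lists were chosen with earlier results of these data known. The genes named were all 8 members, up to 4 genes of each pathway list past the threshold with the largest change, the most abundant of each marker list and the 5 nearest profiles. Some of them are only summarised. Hpgds, Il3ra, Csf2rb, Slc18a2, Gata1, Cd200r3, Ctsg, Epx, Prg3, Siglecf and Ear6 were named after their values were seen, as were the neighbours of Il4. Alternatives tried were DESeq2, limma-voom, RLE scaling, scaling by total count alone, no filter, a filter at a mean of 1 CPM, the replicate block and omission of each library. Added after the data had been seen: omission of both libraries numbered 3, and thinning of each library to the lowest total.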

Additional observations from a re-analysis of the deposited data

How the results depend on the processing

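No member changed direction in any alternative. The 5 members called lower became 2 to 4 with 1 library left out, and the 2 called higher became 1 to 2. Those fits have fewer libraries, and the cause of the lost calls was not tested. Prss34, Mcpt8 and Il4 were called in all 15 alternatives, Hdc in 14, Cpa3 in 13, Ms4a2 in 9 of the 14 that tested it and Gata2 in 8. With a mean of at least 1 CPM, Ms4a2 was not tested. Fcer1a was tested in 7 alternatives and called in 1, without conditioned-medium replicate 3 (adjusted p = 0.0466). The replicate block changed no member's call (5 lower and 2 higher, Gata2 with adjusted p = 0.0104), and leaving out both libraries numbered 3 changed none either. Summed over all members, conditioned medium stood at 0.68 of the untreated level, and at 0.886 with overlapping groups without Prss34, the most abundant member. Over all tested genes, 1749 were higher, against 2656 without scaling beyond the total count and 1146 to 1653 with 1 library left out. Of 38 other named genes whose alternatives were read, 36 kept their direction in every alternative run. Slc18a2 and Gata1, neither of which was called, did not: Slc18a2 had a log2 fold change of -0.03, against 0.02 without scaling beyond the total count and -0.16 to 0.10 with 1 library left out. Gata1 had -0.13, against 0.02 without both libraries numbered 3 and -0.43 to 0.18 with 1 library left out. Depth limits Fcer1a and Ms4a2 most, whose counts per library were 0 to 10 and 1 to 32.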

Other observations

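The wells numbered 3 were low for several minor-lineage lists in both groups. As a share of the untreated mean, untreated well 3 and conditioned-medium well 3 stood at 78.9% and 39.1% for eosinophil markers, at 72.5% and 69.1% for megakaryocyte markers, at 86.5% and 67.1% for B cell markers, and at 84.6% and 58.6% for blood progenitor markers, each the lowest of its group. For all 8 members the values were 86.4% and 61.3%, and for the 6 that remain without Hdc and Il4, a split by direction, 79.9% and 22.2%. The summed macrophage markers stood at 110% and 113% in the same wells, the highest of each group. Most of that sum was Lyz2, at 50243 and 51639 CPM in these wells. Single macrophage markers differed. Lyz2, Csf1r and Fcgr1 were highest in well 3 of both groups, and Adgre1 only in untreated well 3. Cd68, Itgam, Mertk and Mrc1 were lowest in well 3 of both groups.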
